A study of Mus musculus with 18 samples.

Results

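The comparison examined here set tumors injected with the naked ribozyme (Free PS473) against tumors injected with vehicle (PBS). It was chosen by name, as the 3 Free PS473 tumors and the 3 PBS tumors of the deposited table, so that it covered 6 of the 18 tumors sequenced (6 groups of 3). All tumors grew from B16F10 cells, a mouse melanoma cell line, placed under the skin of the flank in female mice of the C57BL/6 strain, whose age the labels do not give. The labels name no engineered allele, and both groups shared the tumor line, the site and the route. Injections into the tumor started on day 6 and were repeated every 2 days, and the tumors were taken 48 h after the last one. The PBS group received the buffer alone. The Free PS473 group received the ribozyme with neither a polymer nor a metal-organic framework around it. Free M5, the inactive ribozyme without a carrier, was not among the 6 groups sequenced. RNA injection as such and cleavage by PS473 therefore cannot be told apart in this comparison. The labels give separate tumors but do not say that each came from a separate mouse, and p values then measure only the spread between these samples.

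Pistol ribozymes are small RNAs that cut an RNA strand after pairing with it, here in a form that acts on a separate RNA found by base pairing. PS473 was designed against the coding sequence of Cd274, the gene for PD-L1, a surface protein with which tumor and myeloid cells restrain T cells through PD-1. Extracellular RNA that enters a cell can also be read by endosomal and cytosolic sensors, which switch on type I interferon, and interferon in turn raises a large set of antiviral and antigen presentation genes, Cd274 among them. The comparison therefore addresses both the target and this response.

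The screening design of PS473 and the bases it pairs with are shown because they place the cleavage site in Cd274. The study lengthened the 3′ arm after screening and used the longer form from then on under the same name, so the RNA injected paired with more bases upstream of the cleavage site than are printed here. The longer form is not shown. In the screening design, capitals mark the bases that pair with Cd274, 4 on the 5′ side and 10 on the 3′ side. In the target, capitals mark the GU at the cleavage site.
PS473 screening design: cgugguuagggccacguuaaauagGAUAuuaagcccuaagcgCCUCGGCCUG
Cd274 target of the screening design: caggccgaggGUuauc
These 16 bases lie in exon 4 of the 7 exons of Cd274, within the coding sequence, at chr19:29380372-29380387 on the plus strand of build GRCm38. The G of the GU is coding position 473.

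Cd274 did not differ detectably between the groups. Its level was 21.5, 15.7 and 12.3 FPKM in PBS 1, 2 and 3 and 12.3, 11.7 and 14.0 FPKM in Free PS473 1, 2 and 3. The groups overlapped, since Free PS473 3 lay above PBS 3, and PBS 1 was the highest of the 6 tumors. The means were 16.5 ± 4.64 FPKM with PBS and 12.7 ± 1.21 FPKM with Free PS473 (SD, n = 3 each). The log2 fold change was -0.33 ± 0.34 (SE), with a 95% interval from -1.05 to 0.39 and an adjusted p of 1 in limma. That interval holds a log2 change of -1 as well as 0. Without PBS 1 the log2 fold change was -0.13, and without PBS 3 it was -0.51. In the other 4 groups single tumors ranged from 9.74 to 32.9 FPKM, so the 3 Free PS473 values lay within the range of the series.

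**Figure D1:**
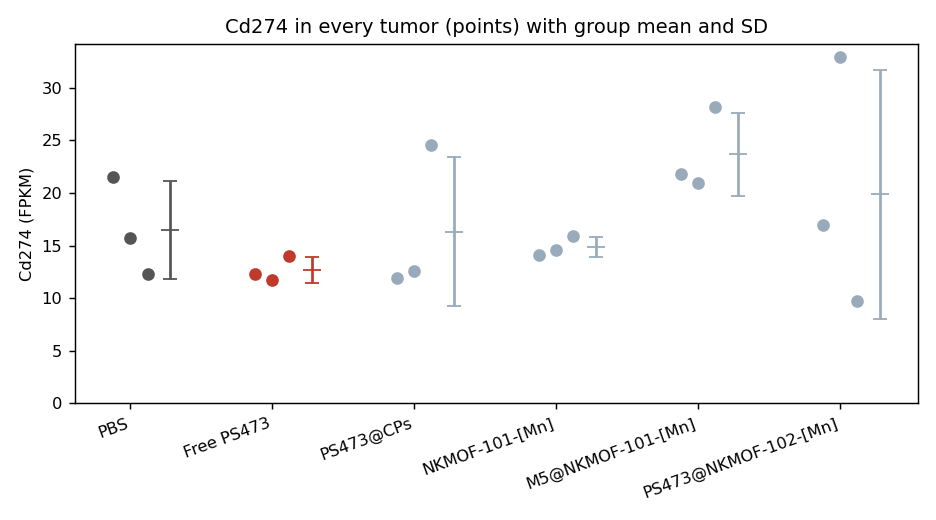
Cd274 in FPKM (vertical axis) in each of the 18 tumors by group, with points for tumors and bars for the group mean and SD (group names as in the sample titles). The Free PS473 tumors sit between 11.7 and 14.0 FPKM and overlap the PBS tumors, which sit between 12.3 and 21.5 FPKM.

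Across the transcriptome no gene passed the threshold. Of the 41079 genes in the table, 12357 averaged 1 FPKM or more across all 18 tumors and were tested with limma on log2(FPKM + 1). With the adjusted p required to be under 0.05 and the fold above 2, 0 genes were called (0%), and the smallest adjusted p was 0.9998. At an unadjusted p under 0.05, 224 genes passed (1.81%), of which 156 were higher and 68 (0.55%) lower with Free PS473. With a fold above 2 added, 1 gene was higher (0.00809%) and 17 were lower (0.138%). The higher one was Fbp2, a fructose bisphosphatase of muscle, at 1.38, 1.39 and 1.31 FPKM in PBS 1, 2 and 3 and 5.87, 0.912 and 8.40 FPKM in Free PS473 1, 2 and 3, a log2 fold change of 1.08 ± 0.48 (SE), with overlap between the groups. The 17 included Rptn, of the upper epidermis, at 0, 40.5 and 10.5 FPKM in PBS 1, 2 and 3 and 0, 0 and 1.24 FPKM in Free PS473 1, 2 and 3, a log2 fold change of -2.58 ± 1.04 (SE). The Rptn log2 fold change was -4.06 without PBS 1 and -1.37 without PBS 2. Casp14, a caspase of the same layer, was at -1.85 ± 0.79 (SE), and both were listed at 0 in PBS 1. These 3 genes were named after their values were seen. Fbp2 is not in the list of skeletal muscle genes. Of the 10 tested genes of that list 9 were lower (90%, against 40.5% of all genes). The median log2 fold change of that list was -0.40, and 0.10 without PBS 3. Over all genes the median log2 fold change was 0.03, and 40.5% of genes had a value below 0. The ends of the distribution were unequal, with the 5th percentile at -0.44 and the 95th at 0.24. Every Free PS473 tumor was above every PBS tumor for 417 genes (3.37%) and below for 190 genes (1.54%). The 417 differed by little, with a median log2 fold change of 0.21 and none above 2-fold. The 190 had a median of -0.36, and 10 of them differed by more than 2-fold.

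**Figure D2:**
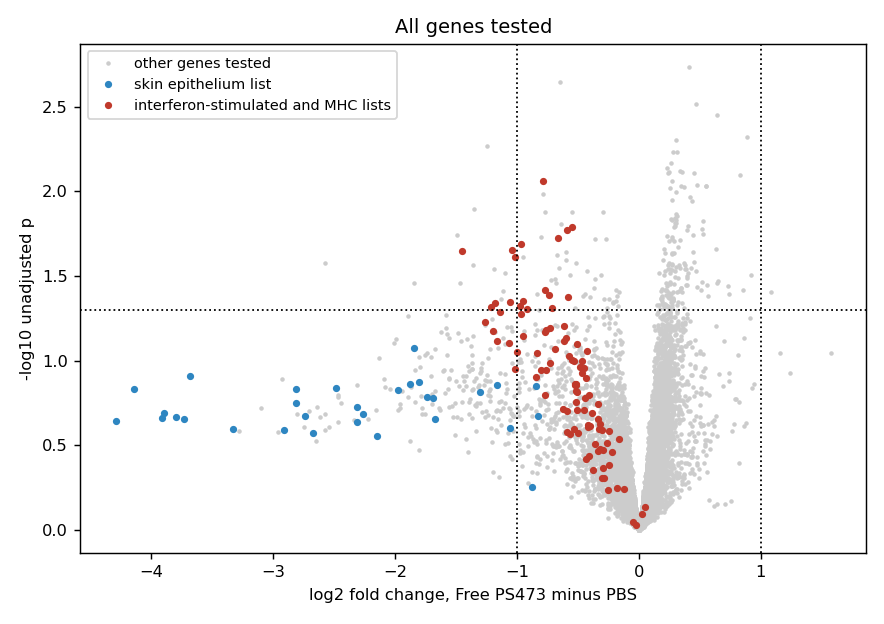
Each point is 1 of the 12357 genes tested, with its log2 fold change (Free PS473 minus PBS, horizontal axis) and the -log10 of its unadjusted limma p value (vertical axis), and dotted lines at a fold of 2 and at the unadjusted threshold of 0.05. Members of the interferon-stimulated and MHC lists (red) lie nearly all left of 0, and skin epithelium genes (blue) lie farthest left without reaching the horizontal line.

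The 6 tumors also differed in genes of skin, and these values stand beside every list that follows. Keratinocyte genes were present in PBS 2, PBS 3 and Free PS473 3 and nearly absent from PBS 1, Free PS473 1 and Free PS473 2. Krt14, a keratin of the basal epidermis, stood at 0, 2058 and 666 FPKM in PBS 1, 2 and 3 and 0, 0 and 184 FPKM in Free PS473 1, 2 and 3. The summed level of the skin epithelium list (mean log2(FPKM + 1) of its genes) ran from 0.288 to 5.43 in PBS and from 0.251 to 2.85 in Free PS473. All 31 tested members of that list had a lower value with Free PS473, with a median log2 fold change of -2.31. Of these, 0 had an unadjusted p under 0.05 (against 1.81% of all genes). The groups separated in 0 of them (against 1.54% of all genes), and in all 31 without PBS 1 (against 8.17% of all genes). Defining melanocyte genes were high in all 6 tumors. Pmel, a protein of the pigment granule, stood at 1337, 1084 and 1359.8 FPKM in PBS 1, 2 and 3 and 1059, 1582 and 893 FPKM in Free PS473 1, 2 and 3, with a log2 fold change of -0.13 ± 0.21 (SE). Free PS473 1 and 2 were close to each other (Pearson r 0.988 across genes, which are not independent replicates), while Free PS473 3 had r of 0.949 and 0.936 with them. The PBS tumors differed more, since PBS 1 had r of 0.904 with PBS 2 and 0.943 with PBS 3. PBS 2 and PBS 3 had r of 0.974. PBS 1 was closer to Free PS473 1 and 2 (r of 0.975 and 0.973) than to either other PBS tumor. Fragments assigned to genes, read from the smallest steps of the values, were 19504000 to 20023000 in PBS and 20106000 to 25653000 in Free PS473, so that all PBS tumors were the shallower ones.

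Interferon-stimulated genes had lower values with Free PS473 throughout the list. Of 74 listed genes, 69 were tested. All 69 had a log2 fold change below 0, against 40.5% of all genes, with a median of -0.52. Members of a list can move together within a tumor, so they are not independent observations. The lists were also chosen with earlier results of these data known. Shares set against all genes, here and for the lists that follow, are therefore a description and not a test. In 27 of the 69 genes (39.1%, against 1.54% of all genes) every Free PS473 tumor was below every PBS tumor. Without Free PS473 3 that number was 53, where 9.17% of all genes separated. Leaving out any other tumor gave 27 to 36, where 2.46% to 8.17% of all genes separated. Free PS473 3 was the tumor nearest to PBS in most of these genes, so its removal favors separation. An unadjusted p under 0.05 was reached by 9 (against 0.55% of all genes in this direction), and 0 passed the adjusted threshold. The summed level was 3.30, 2.89 and 2.94 in PBS 1, 2 and 3 and 2.44, 2.16 and 2.91 in Free PS473 1, 2 and 3. Free PS473 1 and 2 were the lowest, and Free PS473 3 lay between PBS 2 and PBS 3.

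Ifitm3, a membrane protein that blocks entry of enveloped viruses, had the smallest p in the list. Its level was 312, 198 and 192 FPKM in PBS 1, 2 and 3 and 127, 103 and 176 FPKM in Free PS473 1, 2 and 3. Every Free PS473 tumor was below every PBS tumor, with a log2 fold change of -0.78 ± 0.26 (SE, unadjusted p = 0.00869, adjusted p = 1). Irf9, a transcription factor of the interferon response, was at 15.7, 13.2 and 14.3 FPKM in PBS 1, 2 and 3 and 9.99, 8.06 and 10.6 FPKM in Free PS473 1, 2 and 3, a log2 fold change of -0.55 ± 0.20 (SE). Its groups did not overlap either, and the tumor nearest to the PBS range was Free PS473 3. Dtx3l, a ubiquitin ligase partner of Parp9, was at 9.10, 10.4 and 9.29 FPKM in PBS 1, 2 and 3 and 6.70, 6.06 and 5.50 FPKM in Free PS473 1, 2 and 3, and here Free PS473 3 was the lowest of all.

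The immunity-related GTPases, which attack the vacuoles of intracellular parasites and are strongly induced by interferon gamma, held some of the larger folds. Tgtp2 was at 26.4, 13.7 and 15.4 FPKM in PBS 1, 2 and 3 and 6.04, 6.26 and 13.9 FPKM in Free PS473 1, 2 and 3. Its groups overlapped, because Free PS473 3 exceeded PBS 2, and its log2 fold change was -1.04 ± 0.41 (SE, unadjusted p = 0.0223). Tgtp1 is a near-identical copy, so reads may have been split between them and both values are uncertain. Igtp was at 45.6, 28.5 and 38.5 FPKM in PBS 1, 2 and 3 and 10.5, 13.8 and 34.2 FPKM in Free PS473 1, 2 and 3, and Irgm2 at 19.8, 13.1 and 15.4 FPKM in PBS 1, 2 and 3 and 5.89, 6.23 and 11.9 FPKM in Free PS473 1, 2 and 3. Igtp and Irgm2 fall outside the rule for naming genes and were chosen after their values were seen, for their promoters. In both, Free PS473 1 and 2 were far below PBS. For Igtp, Free PS473 3 exceeded PBS 2, so its groups overlapped. For Irgm2, Free PS473 3 was close to PBS 2 but below it, so its groups did not overlap.

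The promoters of Tgtp2, Igtp and Irgm2 are shown because these 3 lower genes carry the same arrangement of motifs. Capitals mark TTCNNNGAA, known as the gamma-activated site, and GAAANNGAAA, the interferon-stimulated response element, on the gene strand. The sequences are from RefSeq (GRCm38.p6) and run from 250 bases before the gene start to 50 after it.
Tgtp2 (chr11:49064163-49064462, minus strand): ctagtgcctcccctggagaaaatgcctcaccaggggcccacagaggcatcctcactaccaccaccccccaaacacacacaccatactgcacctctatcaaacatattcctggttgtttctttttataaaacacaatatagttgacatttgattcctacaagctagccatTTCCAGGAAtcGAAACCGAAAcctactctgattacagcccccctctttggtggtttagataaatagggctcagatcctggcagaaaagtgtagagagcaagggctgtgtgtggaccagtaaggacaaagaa
Igtp (chr11:58199306-58199605, plus strand): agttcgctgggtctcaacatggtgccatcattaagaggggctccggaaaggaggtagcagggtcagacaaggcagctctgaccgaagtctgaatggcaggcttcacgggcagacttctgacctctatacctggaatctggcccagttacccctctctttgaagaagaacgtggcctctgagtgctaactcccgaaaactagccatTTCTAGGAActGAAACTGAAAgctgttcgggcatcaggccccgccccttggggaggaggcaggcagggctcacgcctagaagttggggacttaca
Irgm2 (chr11:58214727-58215026, plus strand): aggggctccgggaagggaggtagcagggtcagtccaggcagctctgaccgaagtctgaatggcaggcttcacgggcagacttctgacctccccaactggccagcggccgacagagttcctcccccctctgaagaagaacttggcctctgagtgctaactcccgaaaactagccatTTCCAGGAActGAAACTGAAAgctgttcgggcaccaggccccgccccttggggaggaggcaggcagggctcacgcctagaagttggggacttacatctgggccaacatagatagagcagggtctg
Searched on both strands, GAAANNGAAA was present in 3.44% and TTCNNNGAA in 8.30% of 32851 promoters of the same length. The pair with starts 11 bases apart was present in 5 of them (0.0152%), namely Tgtp1, Tgtp2, Igtp, Irgm2 and Gm12185. Of the 98 tested members of the interferon-stimulated and MHC lists, 74 had a promoter in the table, and 34 of these held GAAANNGAAA in any of their promoters. This counts genes, whereas the shares above count promoters. The lists were drawn up as interferon-stimulated and MHC genes, so the number says nothing about being lower with Free PS473. A match describes letters and does not show binding.

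MHC class I antigen presentation genes were mostly lower with Free PS473. These genes make peptides from cytosolic proteins and load them onto H2 molecules for CD8 T cells. Of 20 tested members, 18 were lower, the median log2 fold change was -0.56, and in 6 (30.0%, against 1.54% of all genes) the groups did not overlap. Without Free PS473 3 that number was 18, against 9.17% of all genes. Leaving out any other tumor gave 6 to 8, against 2.46% to 8.17% of all genes. An unadjusted p under 0.05 was reached by 7, all lower, against 0.55% of all genes. B2m, the light chain shared by all class I molecules, was at 1687, 1465 and 1529 FPKM in PBS 1, 2 and 3 and 1019, 850.3 and 1270.5 FPKM in Free PS473 1, 2 and 3, a log2 fold change of -0.59 ± 0.22 (SE). H2-D1, a class I heavy chain, was at 411, 421 and 371 FPKM in PBS 1, 2 and 3 and 239, 191 and 351 FPKM in Free PS473 1, 2 and 3, a log2 fold change of -0.66 ± 0.25 (SE). Class I heavy chains are alike in sequence, and reads may be shared among them. H2-K1 was at 51.6, 75.3 and 59.4 FPKM in PBS 1, 2 and 3 and 27.3, 18.9 and 50.7 FPKM in Free PS473 1, 2 and 3, a log2 fold change of -1.02 ± 0.41 (SE, unadjusted p = 0.0244, adjusted p = 1). In these 3 genes every Free PS473 tumor was below every PBS tumor and Free PS473 3 was the nearest to PBS. Tap1, which pumps peptides into the endoplasmic reticulum, was at 47.0, 41.1 and 41.8 FPKM in PBS 1, 2 and 3 and 20.8, 19.6 and 37.7 FPKM in Free PS473 1, 2 and 3. Psmb9, an immunoproteasome subunit, was at 69.0, 36.5 and 32.5 FPKM in PBS 1, 2 and 3 and 14.6, 16.2 and 43.2 FPKM in Free PS473 1, 2 and 3, and its groups overlapped because Free PS473 3 exceeded PBS 2 and PBS 3.

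MHC class II genes, which present peptides to CD4 T cells and are mostly made by dendritic cells, macrophages and B cells, had the lowest median among the lists of immune genes with at least 5 members tested. All 9 tested members were lower, with a median log2 fold change of -0.62, and 2 separated the groups (22.2%, against 1.54% of all genes). Without Free PS473 3 all 9 separated, against 9.17% of all genes. Leaving out any other tumor gave 2 or 3, against 2.46% to 8.17% of all genes. Cd74, the invariant chain, was at 122, 149 and 196 FPKM in PBS 1, 2 and 3 and 25.6, 53.4 and 121 FPKM in Free PS473 1, 2 and 3, a log2 fold change of -1.45 ± 0.57 (SE, unadjusted p = 0.0225, adjusted p = 1). Its groups met closely, with Free PS473 3 just under PBS 1. H2-Eb1 was at 32.3, 29.4 and 49.6 FPKM in PBS 1, 2 and 3 and 6.56, 11.8 and 41.6 FPKM in Free PS473 1, 2 and 3, and H2-Aa at 58.8, 56.5 and 77.6 FPKM in PBS 1, 2 and 3 and 15.9, 20.2 and 69.4 FPKM in Free PS473 1, 2 and 3. In both genes Free PS473 1 and 2 were low and Free PS473 3 lay within the PBS values. Without Free PS473 3 the median of the 9 genes was -1.28, and without Free PS473 1 it was -0.37.

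**Figure D3:**
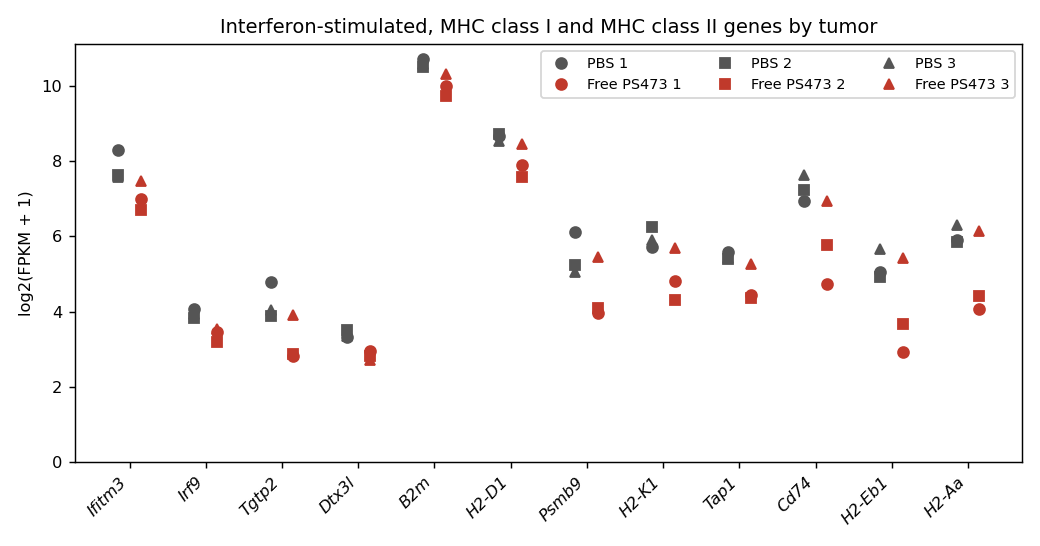
Levels of 12 genes in log2(FPKM + 1) (vertical axis) in each PBS tumor (grey) and Free PS473 tumor (red), with 1 symbol shape per tumor number. Free PS473 1 and 2 lie lowest for all of these genes except Dtx3l, where Free PS473 3 is lowest, while Free PS473 3 (red triangles) lies above both in the others.

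Sensors of RNA had a median near that of all genes. Of 23 tested sensors and adaptors, 15 were lower with a median log2 fold change of -0.09, and in 6 (26.1%, against 1.54% of all genes) the groups did not overlap, all of them lower with Free PS473. Zbp1, a sensor of left-handed double-stranded nucleic acid that is itself induced by interferon, was at 12.4, 6.87 and 7.78 FPKM in PBS 1, 2 and 3 and 1.35, 2.25 and 9.12 FPKM in Free PS473 1, 2 and 3, a log2 fold change of -1.19 ± 0.60 (SE). Ifih1, the gene for MDA5, was at 3.24, 3.44 and 3.26 FPKM in PBS 1, 2 and 3 and 2.65, 1.69 and 3.12 FPKM in Free PS473 1, 2 and 3. Of the 11 tested genes of the OAS and RNase L system, which degrades RNA once double-stranded RNA is sensed, 9 were lower and the median was -0.32. Oasl2 was at 5.48, 3.88 and 4.41 FPKM in PBS 1, 2 and 3 and 1.88, 1.29 and 3.57 FPKM in Free PS473 1, 2 and 3, with no overlap between the groups. In the cGAS-STING pathway, which senses DNA, the median of 12 genes was -0.06, and Sting1 was at 8.20, 8.42 and 8.93 FPKM in PBS 1, 2 and 3 and 7.87, 7.90 and 7.68 FPKM in Free PS473 1, 2 and 3, a log2 fold change of -0.11 ± 0.13 (SE). Interferons and their receptors had a median of -0.01 over 10 tested genes. In these 4 lists 0 genes had an unadjusted p under 0.05, against 1.81% of all genes. The lists are not separate from the one above, since 15 of their 53 tested genes are also counted as interferon-stimulated. Among these are 7 of the 23 sensors and adaptors and 7 of the 11 OAS and RNase L genes. With the skin epithelium score as a covariate in limma, 12 of the 23 sensors and adaptors were lower (median -0.01). The same fit had 8 of the 11 OAS and RNase L genes lower (median -0.24).

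Markers of leukocytes were mostly lower as well, and in whole tumors fewer cells of a type and less RNA per cell cannot be told apart. The chemokine list was mixed. Of its 18 tested genes, 11 were lower and 7 higher, with a median of -0.11. In 0 of them the groups separated, against 1.54% of all genes below and 3.37% above. Without Free PS473 3, 13 chemokine genes separated in the lower direction, against 9.17% of all genes. Leaving out any other tumor gave 0 or 1, against 2.46% to 8.17% of all genes. The chemokine median ran from -0.97 without Free PS473 3 to 0.35 without Free PS473 2. Cxcl10 was at 145, 140 and 140 FPKM in PBS 1, 2 and 3. In Free PS473 1, 2 and 3 it was at 106, 116 and 159 FPKM, a log2 fold change of -0.18 ± 0.29 (SE). All 8 tested genes of T cells and cytotoxic effectors were lower (median -0.53), and 3 separated the groups (37.5%, against 1.54% of all genes). Without Free PS473 3 that number was 7, against 9.17% of all genes. Leaving out any other tumor gave 3 or 4, against 2.46% to 8.17% of all genes. The median was -0.12 with no filter on low values, -0.18 with the filter over the 6 tumors, -0.255 with quantile normalization and -1.22 with a pseudocount of 0.1. Cd3g, part of the T cell receptor complex, was at 0.952, 0.652 and 1.25 FPKM in PBS 1, 2 and 3 and 0.219, 0.324 and 0.601 FPKM in Free PS473 1, 2 and 3. Gzmb, a protease of killer cells, was at 1.22, 0.763 and 0.994 FPKM in PBS 1, 2 and 3 and 0.378, 0.0773 and 0.485 FPKM in Free PS473 1, 2 and 3. These levels are near or below 1 FPKM, and 19 of the 27 genes listed were not tested because they averaged under 1 FPKM. Of 17 tested macrophage genes, 13 were lower (median -0.35), but Free PS473 3 had the highest summed level of the 6 tumors at 3.74, against 2.56 to 3.23 in PBS, and Free PS473 1 and 2 had the lowest at 2.21 and 1.91. Without Free PS473 2 the macrophage median was 0.01. C1qb, a complement subunit made by macrophages, was at 37.3, 49.7 and 46.7 FPKM in PBS 1, 2 and 3 and 22.8, 13.5 and 81.0 FPKM in Free PS473 1, 2 and 3. Serping1, an inhibitor of complement, was at 8.68, 15.9 and 14.0 FPKM in PBS 1, 2 and 3 and 2.89, 1.81 and 9.55 FPKM in Free PS473 1, 2 and 3, a log2 fold change of -1.47 ± 0.63 (SE, unadjusted p = 0.035). Its groups overlapped.

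**Figure D4:**
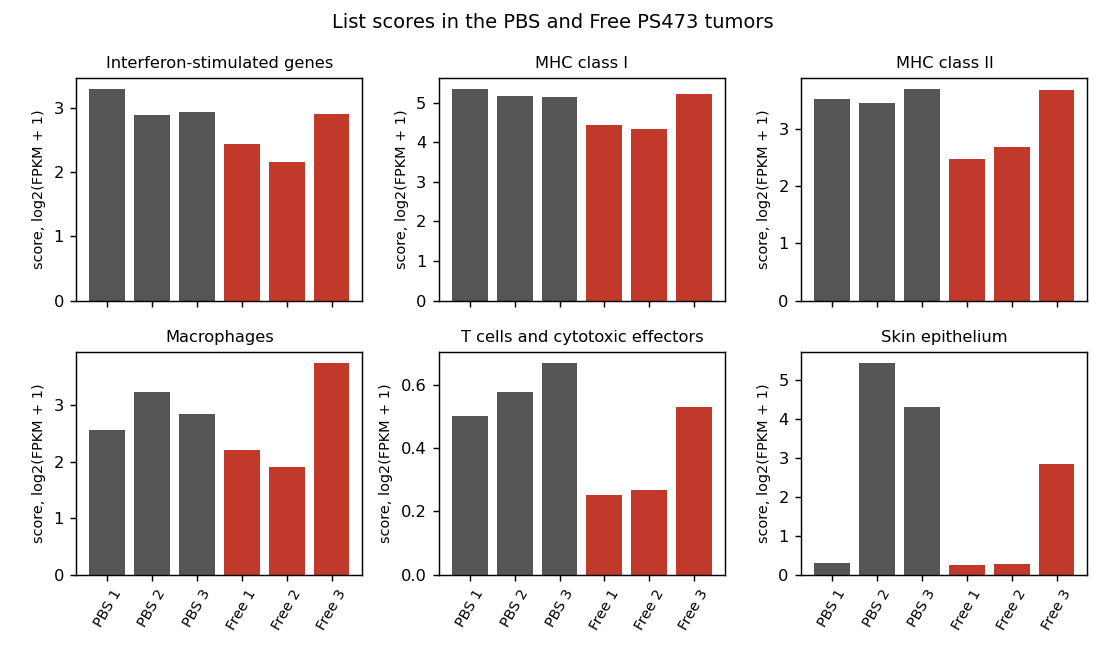
Summed level of 6 gene lists (mean log2(FPKM + 1) of the listed genes, vertical axis, each from 0) in the 3 PBS tumors (grey) and the 3 Free PS473 tumors (red). PBS 1 has little skin epithelium (0.288) and the highest level of interferon-stimulated genes (3.30), and Free PS473 1 and 2 have little skin epithelium and the lowest levels.

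The interferon and MHC values can be set beside the skin values tumor by tumor. PBS 1 had as little skin epithelium as Free PS473 1 and 2 (0.288 against 0.251 and 0.285), and its summed interferon-stimulated level was 3.30 against 2.44 and 2.16. With the skin epithelium score as a covariate in limma, 68 of the 69 interferon-stimulated genes were lower, with a median of -0.47, 18 of the 20 MHC class I genes were lower, with a median of -0.39, and all 9 MHC class II genes were lower, with a median of -0.37. The macrophage median was then -0.02 and that of the T cell list -0.20. The chemokine median was 0.49, with 3 of its 18 genes lower. The part of skin, macrophages and other leukocytes in the lower interferon and MHC values was not tested.

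Other programs of the tumor were near the median of all genes, with exceptions. The cell cycle list had a median of 0.04 over 30 genes and the melanocyte list -0.13 over 20. Of the 20 melanocyte genes 17 were lower (85%, against 40.5% of all genes). With the skin score as a covariate 17 were lower again, with a median of -0.25. The unfolded protein response had 19 of 24 genes above 0 and a median of 0.12, with 20.8% of its genes below 0 against 40.5% of all genes. Chac1, an enzyme that degrades glutathione and is induced by endoplasmic reticulum and amino acid stress, was at 7.13, 10.2 and 4.99 FPKM in PBS 1, 2 and 3 and 19.99, 9.91 and 9.96 FPKM in Free PS473 1, 2 and 3, a log2 fold change of 0.73 ± 0.33 (SE, unadjusted p = 0.0403, adjusted p = 1). Herpud1, a component of degradation at the endoplasmic reticulum, was at 24.5, 25.3 and 21.2 FPKM in PBS 1, 2 and 3 and 31.5, 26.8 and 26.6 FPKM in Free PS473 1, 2 and 3, without overlap. Immediate early genes, which respond within minutes to growth factors and stress, had 19 of 22 lower and a median of -0.54, and with the skin score as a covariate 16 were lower with a median of -0.27. Fos was at 114, 140.3 and 90.5 FPKM in PBS 1, 2 and 3 and 39.9, 68.7 and 73.3 FPKM in Free PS473 1, 2 and 3, without overlap, and Egr1 at 11.6, 36.3 and 23.2 FPKM in PBS 1, 2 and 3 and 3.77, 2.68 and 23.3 FPKM in Free PS473 1, 2 and 3, with Free PS473 3 inside the PBS range. Pycard, the adaptor of inflammasomes, was at 12.2, 10.3 and 8.43 FPKM in PBS 1, 2 and 3 and 4.66, 7.61 and 7.31 FPKM in Free PS473 1, 2 and 3, a log2 fold change of -0.60 ± 0.24 (SE, unadjusted p = 0.0253). Its list, cell death machinery and p53 targets, did not move with it. Of 22 tested genes there 13 were higher and 9 lower (40.9%, against 40.5% of all genes), with a median of 0.02. At an unadjusted p under 0.05 in limma, 1 gene of that list was higher and 1 lower (against 1.81% of all genes in either direction). Fibroblast and pericyte genes had a median of -0.50 over 20 genes, which ran from -1.10 without Free PS473 3 to -0.13 without Free PS473 2. Complement had a median of -0.31 over 23 genes, from -0.55 to -0.02, and endothelium 0.11 over 15, from -0.28 to 0.40. Red blood cell genes had a median of 0.64 over 7, from -0.07 to 1.85, and the 3 tested neutrophil genes -2.54, from -4.76 without PBS 1 to -1.005 without PBS 2. The neutrophil median was -0.21 with no filter and -0.41 with a mean of at least 0.1 FPKM. S100a8, a calcium-binding protein of neutrophils and of stressed keratinocytes, was at 0.382, 252 and 77.9 FPKM in PBS 1, 2 and 3 and 0.127, 0.497 and 82.4 FPKM in Free PS473 1, 2 and 3, high in the same 3 tumors as the keratinocyte genes. With the skin score as a covariate the median turned to 0.15 for fibroblasts and pericytes, 0.08 for complement and 0.06 for neutrophils, and was 0.63 for endothelium and 0.68 for red blood cells. The sign of the median turned for endothelium without PBS 1 or Free PS473 3 and for red blood cells without PBS 2. Of the genes in these 5 lists, 1 complement gene separated the groups (4.35% of that list, against 1.54% of all genes). Without Free PS473 3, 13 complement and 8 fibroblast and pericyte genes did, against 9.17% of all genes. Leaving out any other tumor gave 1 to 3 complement and 0 to 2 fibroblast and pericyte genes, against 2.46% to 8.17% of all genes. No hair shaft gene was tested.

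**Figure D5:**
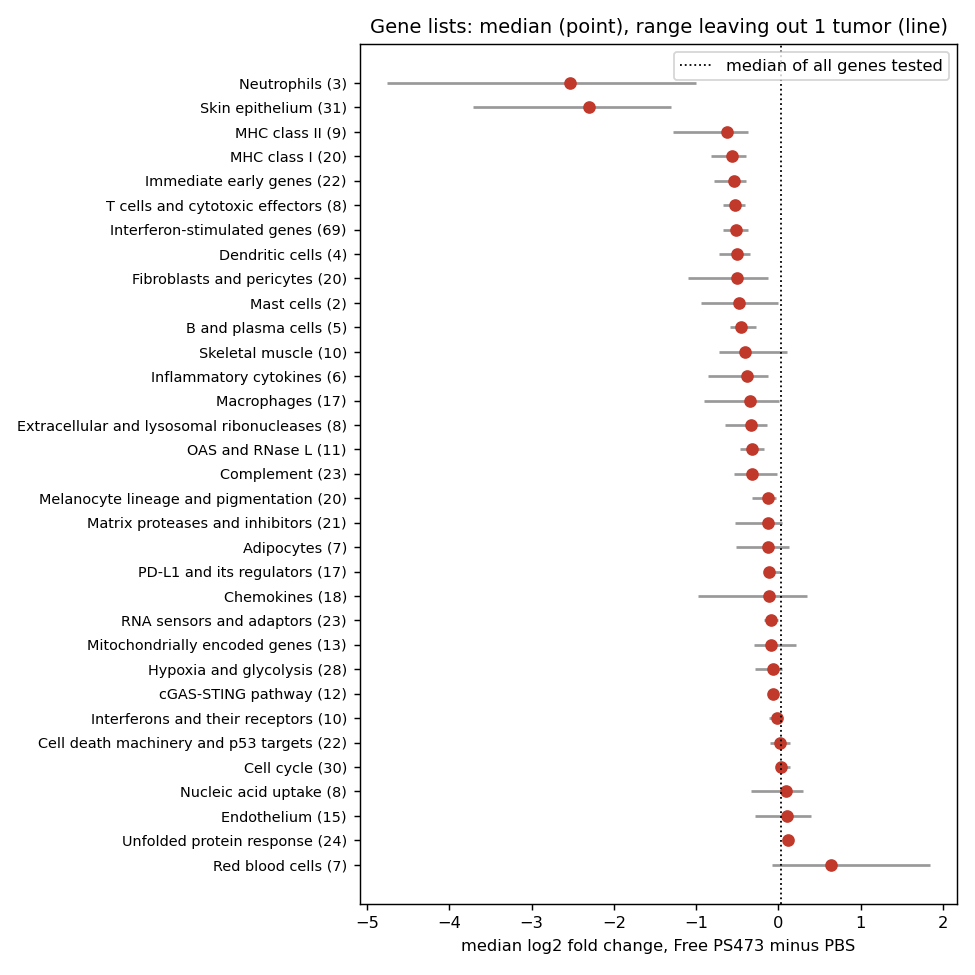
Median log2 fold change (Free PS473 minus PBS, horizontal axis) of each of the 33 lists with a tested gene (number tested in parentheses), with lines for the range when each of the 6 tumors is left out and a dotted line at the median of all genes. The interferon-stimulated and MHC lists stay below 0 throughout, and the skin and neutrophil lists have the lowest medians with the widest ranges.

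The 10 genes with a fold above 2 and no overlap between groups were all lower with Free PS473 and are given as a description. They were Fa2h, Mir5107, Cd74, Mir23a, Gm4786, Gm25296, Gbp4, Mir27a, Mir6381 and H2-K1. Gbp4, a guanylate-binding protein, was at 7.17, 5.27 and 6.64 FPKM in PBS 1, 2 and 3 and 0.940, 2.00 and 4.99 FPKM in Free PS473 1, 2 and 3, with a log2 fold change of -1.16 ± 0.61 (SE, unadjusted p = 0.0763). Gm4786, which RefSeq lists as a transcribed pseudogene, was at 26.3, 23.7 and 21.5 FPKM in PBS 1, 2 and 3 and 7.27, 12.7 and 7.04 FPKM in Free PS473 1, 2 and 3, a log2 fold change of -1.35 ± 0.48 (SE), and as a pseudogene it may share reads with another gene. Fa2h, a fatty acid hydroxylase, was listed at 0 in all Free PS473 tumors and at 0.04, 2.01 and 6.42 FPKM in PBS 1, 2 and 3. The short models of 68 to 131 bases are no measure of mature miRNA in poly(A) libraries. Mir5107 lies within Cd74 and Mir6381 within Gbp2 in RefSeq, and without stated strand their reads cannot be told apart from the host gene. No gene was higher by more than 2-fold without overlap.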

How the data were processed

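Tumor RNA was enriched with oligo(dT) beads, and cDNA was primed with random hexamers. The authors deposited FPKM values (fragment counts scaled by gene length in kilobases and by the total assigned in each tumor) for 41079 genes. The processing notes of the submitters name mouse build GRCm39, while the aligner, the counting tool and the annotation are not given in the sources used here. Deposited FPKM values times gene length sum to 1000000 in every tumor. The values are not whole fragments for all genes, so no count model was used.

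Genes averaging 1 FPKM or more across all 18 tumors were fitted on log2(FPKM + 1), which understates changes of low genes, with limma 3.58.1 in R 4.3.3. All 6 groups entered 1 fit with a trend on mean expression and no replicate block, and p values (two-sided) were adjusted by the Benjamini-Hochberg method. A call needed an adjusted p under 0.05 together with a fold above 2. The procedure was also run on simulated data in which each gene varied independently. In these tumors genes of skin and immune cells moved together, so that run gives no error rate or power for them. The comparison and the 34 gene lists were chosen with earlier results of these data known.

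Named genes were Cd274, the 12 with the smallest p in each direction among those past the threshold (where fewer passed, among those with a fold above 2 and no overlap), up to 5 members of a list with the smallest p and 3 with the highest mean, and tissue markers. 1 gene that this rule names is not reported here. Alternatives were a pseudocount of 0.1, other filters and scalings, the 2 groups alone, no trend, array weights, a replicate block, the skin score as a covariate and leaving out each tumor. Counts of list members without each tumor were added after seeing the data. Figures and sequences were made with Python 3.11.15. Arms of the screening design of the ribozyme were matched to the substrate given with the study, and sites placed on GENCODE M21 (GRCm38), a build other than that of the values, which were used by gene symbol only. No 2 tumors held the same values. Same-numbered PBS and Free PS473 tumors did not deviate together.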

Additional observations from a re-analysis of the deposited data

How the results depend on the processing

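At the adjusted threshold 0 genes in either direction were called in limma under every alternative tried except array weights, which gave 16 higher and 319 lower. Those weights stopped before converging and gave Free PS473 1 a weight of 17.1, against 0.251 to 1.91 for the other 5 tumors. With no filter, 2 genes (Gm23749 and Gm23598) passed an adjusted p under 0.05 at folds below 2. An unadjusted p under 0.05 in place of the adjusted one, with the fold above 2 kept, gave 1 higher and 17 lower. The counts at an unadjusted p that follow in this section all keep the fold above 2. The number of genes higher at an unadjusted p was 3 with a pseudocount of 0.1, 4 with no filter, 4 with a mean of at least 0.1 FPKM, 2 with the mean taken over the 6 tumors, 2 with quantile normalization, 24 with array weights, 5 with the skin score as a covariate, 0 with the 2 groups alone, and 1 to 8 leaving out 1 tumor. The number lower was 47 with a pseudocount of 0.1, 26 with a mean of at least 0.1 FPKM, 26 with quantile normalization, 412 with array weights, 5 with the skin score, and 2 to 227 leaving out 1 tumor. It was 227 without PBS 1, 137 without Free PS473 3, 7 without Free PS473 2 and 2 without Free PS473 1. The cause was not tested.

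The replicate numbers share only a number: same-numbered tumors had correlations of 0.336, -0.406 and 0.001 in their deviations from the group means, and 1 of 3 Free PS473 tumors correlated best with its own number. With the replicate block, 0 genes were higher and 20 lower at an unadjusted p, and Cd274 was at -0.33.

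Cd274 kept its direction under every alternative, from -0.51 to -0.13 leaving out 1 tumor and -0.16 with array weights. The Pmel log2 fold change went from -0.13 to between -0.366 and 0.046 leaving out 1 tumor, the last without Free PS473 3. The S100a8 log2 fold change went from -2.54 to 0.063 with the skin score as a covariate. Of the 69 interferon-stimulated genes, 63 to 69 were lower leaving out 1 tumor, 66 with quantile normalization and 63 with array weights. Depth limits genes near 1 FPKM most, those of T cells among them.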

Other observations

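Among genes of no list, Gbx2, a homeobox factor, had the smallest p of those with no overlap between groups, with a log2 fold change of 0.41 (unadjusted p = 0.00184, adjusted p = 1 in limma). Rapgef5, an exchange factor for Ras-related GTPases, had the smallest p of those that were lower, at -0.65 (unadjusted p = 0.00226, adjusted p = 1 in limma). Both were named after their values were seen.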
